A study of Mus musculus with 6 samples.

Results

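The insulin-like growth factor (IGF) genes described here are 1 ligand (Igf1), 6 binding proteins (Igfbp2 to Igfbp7) and 3 receptors (Igf1r, Igf2r and Insr). These 10 genes were chosen by symbol through their Entrez numbers, and the family was picked with the knockout and control values of this same table already known. All 10 had a row, out of 25206 rows in the table. Their differences between the groups are therefore given as a description, with no p-value, and nothing is supported with them. The cells were mouse group 2 innate lymphoid cell (ILC2) lines of the C57BL/6J background, kept in IL-33 and IL-2, each at 10 ng/ml. All of them carried the lentiviral vector LentiV2CRISPRGFP and were sorted as GFP+ cells on day 6 after transduction. In the control group (3 arrays) the guide was a non-target control, and in the knockout group (3 arrays) it was directed at CBFβ, the partner protein of the RUNX transcription factors. The labels do not say how many lines or separate cultures stand behind the 3 arrays of a group, so the spread may be technical, and sex and age of the mice are not given in the sources used here.

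IGF1 and IGF2 are secreted growth factors that act through the tyrosine kinase receptor encoded by Igf1r and through hybrids of it with the insulin receptor, which feed the PI3K, AKT and mTOR kinases. The binding proteins are secreted proteins that hold IGFs outside the cell, prolong their life, and can either block or aid their access to the receptor. The receptor encoded by Igf2r has no kinase: it takes up and degrades IGF2, and as the cation-independent mannose 6-phosphate receptor it carries newly made acid hydrolases from the Golgi to endosomes and lysosomes. IGF1 is best known as a product of liver, stromal cells and macrophages, so the ligand, the carriers and the receptors need not come from the same cell.

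Igfbp5 and Igf2r were higher in the knockout, and the other 8 genes of the family did not pass the threshold. Igfbp5 was 2.91 times its control level and Igf2r 1.82 times, and for both genes each knockout array read above each control array. The threshold was an adjusted p under 0.05 in limma's moderated fit over all rows, and 9.75% of all rows passed it (5.51% higher and 4.24% lower in the knockout). Since the family was chosen from this contrast, 2 of 10 genes past the threshold is a count and not evidence about the family. Calls were more frequent among rows whose mean over the 6 arrays lay above the median row, of which 18.1% passed, and 6 of the 10 genes, both called ones included, lay there. The median difference was 0.12 on the log2 scale over the 10 genes and -0.0067 over all rows.

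Igfbp5 encodes a secreted binding protein that also attaches to extracellular matrix. On the log2 scale it read 8.33, 8.01 and 8.14 in control replicates 1 to 3 and 9.67, 9.69 and 9.74 in the knockout arrays. The groups lay far apart, and the knockout arrays were the more tightly grouped. The group means were 8.16 ± 0.16 and 9.70 ± 0.036 (SD, n = 3 each), a difference of 1.54 with a standard error of 0.10 (95% interval 1.31 to 1.77, or 2.48 to 3.41 on the linear scale). By size of the rise it ranked 28 of 25206 rows. In bulk RNA, fewer or more cells that express a gene and less or more RNA per cell cannot be told apart.

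The other 5 binding protein genes had overlapping groups and did not pass the threshold. Igfbp4, which encodes a binding protein known mainly as an inhibitor of IGF action, read 4.57, 4.63 and 4.30 on control arrays and 4.68, 4.47 and 4.58 on knockout arrays. Its difference was 0.08 (95% interval -0.18 to 0.33). Igfbp6, which encodes a carrier with a preference for IGF2, read 4.03, 4.18 and 3.99 and then 4.35, 4.13 and 4.26, a difference of 0.18 (interval -0.04 to 0.40). The lowest knockout array of Igfbp6 lay under the highest control array. Igfbp2, which encodes a circulating carrier, read 3.75, 3.74 and 3.68 against 3.82, 3.80 and 3.63, a difference of 0.03 (interval -0.17 to 0.23). Igfbp3, the gene of the main carrier in serum, read 3.08, 3.37 and 3.17 against 3.23, 3.32 and 3.56, a difference of 0.16 (interval -0.11 to 0.43). Igfbp7, whose product binds IGFs weakly and also occurs in vessel walls, read 3.64, 3.29 and 3.60 against 3.55, 3.12 and 3.57, a difference of -0.10 (interval -0.44 to 0.25). For these 5 genes the intervals leave room for changes of up to 0.44 on the log2 scale in either direction, so they do not show equal levels.

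**Figure D1:**
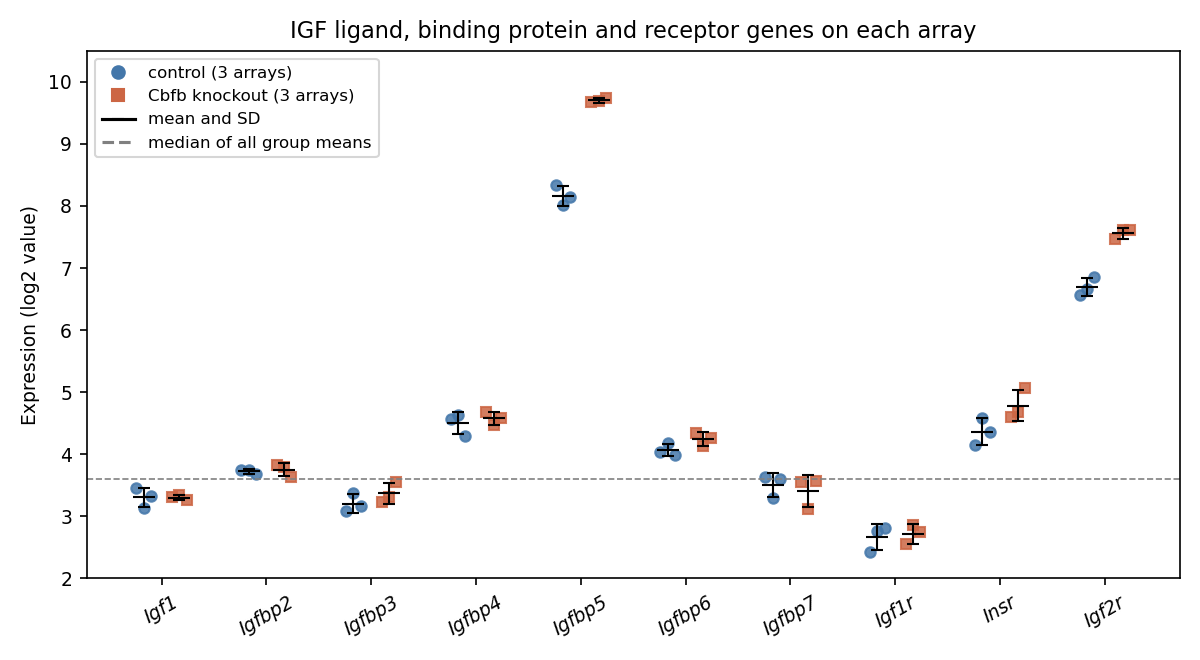
Expression on a log2 scale (vertical axis) of the 10 genes (horizontal axis) on each of 3 control arrays (circles) and 3 Cbfb knockout arrays (squares), with the mean and SD of each group in black and the median of all group means, 3.6, as a dashed line. The squares of Igfbp5 (9.67 to 9.74) and Igf2r (7.46 to 7.62) sit above all their circles, and levels should be compared within a gene only.

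Among the receptors, Igf2r read 6.57, 6.67 and 6.85 on control arrays and 7.46, 7.62 and 7.61 on knockout arrays. The lowest knockout array stood above the highest control array by more than the range of either group. Means were 6.70 ± 0.14 and 7.56 ± 0.090 (SD, n = 3 each), a difference of 0.87 with a standard error of 0.10 (95% interval 0.63 to 1.10, or 1.55 to 2.14 on the linear scale), which ranked 253 of 25206 rows. Insr, the insulin receptor gene, read 4.15, 4.58 and 4.36 on control arrays and 4.60, 4.68 and 5.07 on knockout arrays. Its groups did not overlap, but control replicate 2 and knockout replicate 1 were nearly equal, and the difference of 0.42 (interval 0.07 to 0.77 before any adjustment for the number of rows) did not pass the threshold. Igf1r, which encodes the signalling receptor for IGF1, read 2.42, 2.77 and 2.81 against 2.55, 2.86 and 2.75. Here the groups overlapped throughout, with a difference of 0.05 (interval -0.25 to 0.35). Groups without overlap were found for 3 of the 10 genes (Igfbp5, Igf2r and Insr) and for 27.5% of all rows.

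The ligand gene Igf1 read 3.45, 3.14 and 3.33 on control arrays and 3.31, 3.34 and 3.26 on knockout arrays. All knockout arrays lay within the control range, and the difference was -0.0033 (95% interval -0.23 to 0.22). Igf1, Igf1r, Igfbp3 and Igfbp7 had both group means under 3.6, the median of all group means in the table. The table holds no detection calls, so for these 4 genes the values do not tell a low transcript level from background, and a change could be understated. Signalling through IGF1R could not be assessed from these RNA values, and protein was not measured.

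**Figure D2:**
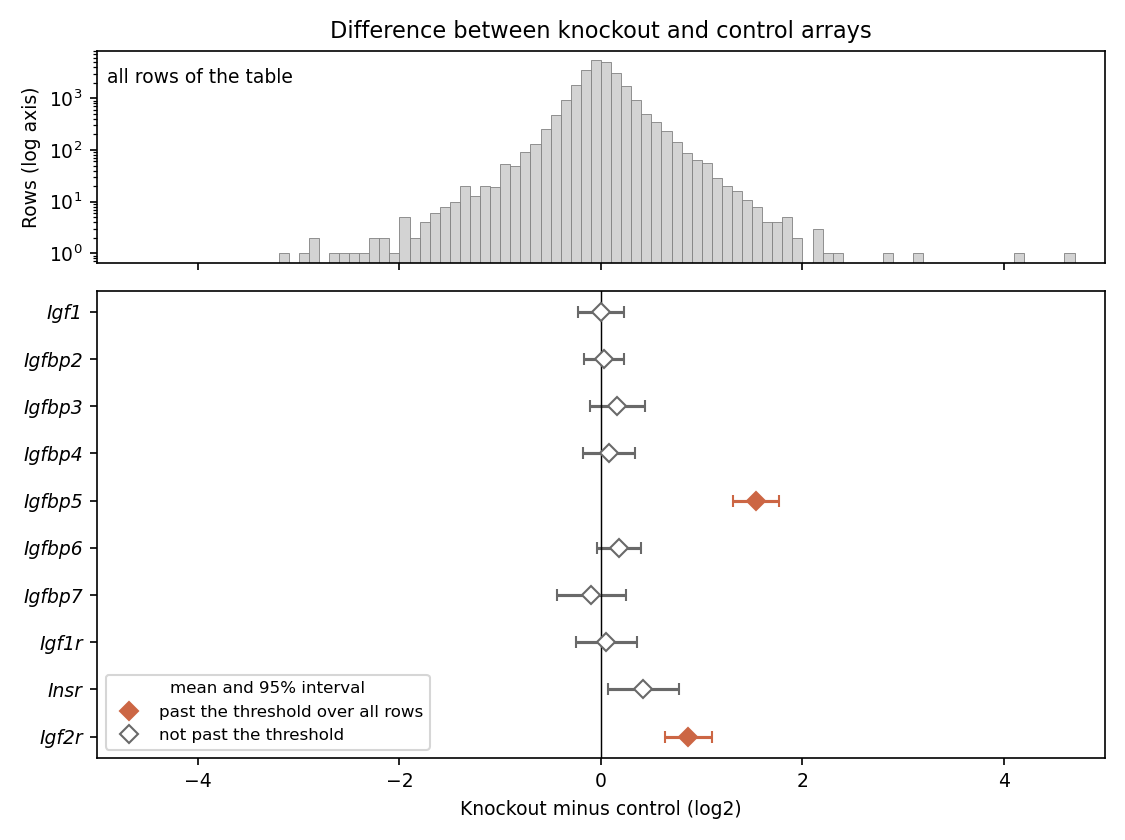
Difference between knockout and control (horizontal axis, log2) for all 25206 rows as a histogram with a log count axis (top) and for the 10 genes with 95% intervals (bottom). Igfbp5 at 1.54 and Igf2r at 0.87 lie in the right flank of all rows, Insr lies at 0.42, and the other 7 lie between -0.10 and 0.18.

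Neighbouring genes were set beside Igfbp5 and Igf2r, a choice made after their values were seen. Igfbp5 has the related gene Igfbp2 as its nearest measured protein-coding neighbour on 1 side, and that gene differed by 0.03 where Igfbp5 differed by 1.54. On the other side Tnp1, the gene of a sperm chromatin protein, differed by 0.33 (limma adjusted p = 0.266) and Tns1, the gene of an adhesion protein, by 0.29 (limma adjusted p = 0.484). Igf2r is imprinted in mice, is expressed mainly from the maternal copy, and is overlapped by the antisense transcript Airn. Airn read 2.43 ± 0.095 and 2.59 ± 0.11 in control and knockout, both under 3.6, with a difference of 0.16 (limma adjusted p = 0.385). The organic cation transporter gene Slc22a2 next to Igf2r differed by -0.19 (limma adjusted p = 0.175) and Mas1, a receptor gene on its other side, by -0.24 (limma adjusted p = 0.240). Of the 6 nearest measured protein-coding genes around each of the pair, 0 passed the threshold in limma, beside 9.75% of all rows. Without adjustment 1 of these 12 genes, Slc22a2, had a 95% interval that did not include 0. Over all rows 5780 of 25206 had an unadjusted p under 0.05 in limma. Tnp1 (3.08 and 3.41), Slc22a2 (2.08 and 1.89) and Mas1 (2.24 and 2.0) had both group means under 3.6. So had Ankar, Rufy4, Plg, Mrgprh and Pnldc1. For these genes the values do not tell a low transcript level from background, and a change could be understated.

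**Figure D3:**
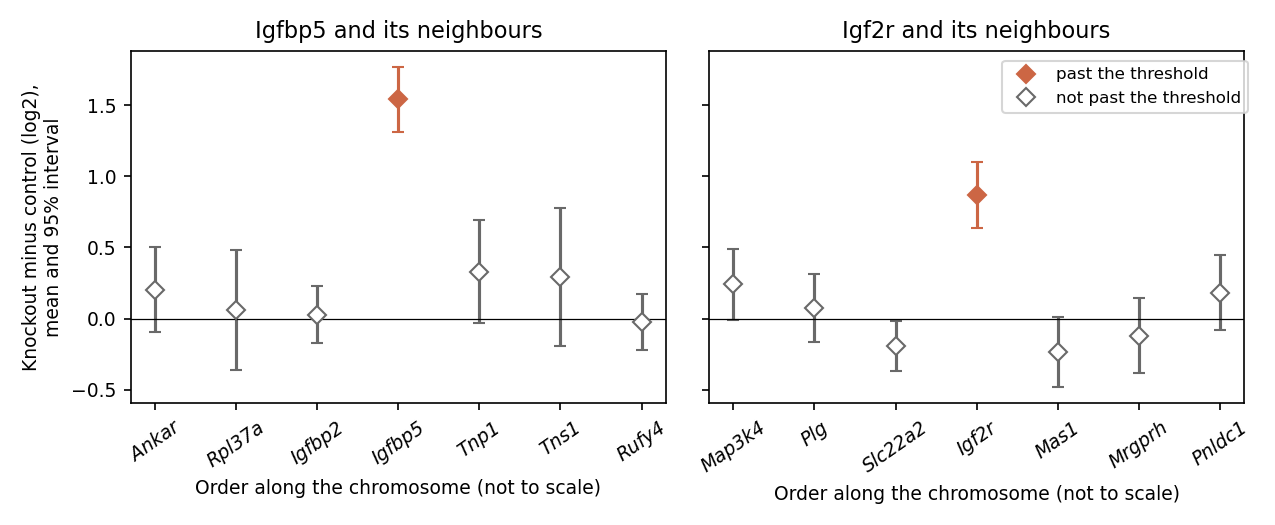
Difference between knockout and control (vertical axis, log2, with 95% intervals) for Igfbp5 (left) and Igf2r (right) and the 3 nearest measured protein-coding genes on each side, in chromosome order and not to scale. The filled markers, at 1.54 and 0.87, are past the threshold over all rows, and the open markers lie between -0.24 and 0.33.

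Sequences before the start site are shown for the pair that stood apart and for Igfbp3. The guide was directed at CBFβ, the partner of RUNX factors. Igfbp3 was the 1 gene among the 9 searched with a RUNX motif in this window. The sequences are the 250 bases before the RefSeq start site in assembly GRCm38.p6, 5′ to 3′ on the gene's own strand. The array's own build is not given in the sources used here. RefSeq's table matched 9 of the 10 genes, all but Insr. Capitals mark the RUNX core motif, searched as TGTGGT or TGCGGT on both strands, and the E-box CACGTG, which is the same on both strands and was added after the sequences had been read. The windows lie at chr1:72874866-72875115 (minus strand) for Igfbp5, at chr17:12769707-12769956 (minus strand) for Igf2r and at chr11:7213924-7214173 (minus strand) for Igfbp3.
Igfbp5: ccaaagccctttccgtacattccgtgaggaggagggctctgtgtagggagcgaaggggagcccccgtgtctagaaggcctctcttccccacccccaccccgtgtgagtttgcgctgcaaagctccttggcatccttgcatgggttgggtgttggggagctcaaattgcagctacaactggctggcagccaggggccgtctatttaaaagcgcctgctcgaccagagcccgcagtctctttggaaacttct
Igf2r: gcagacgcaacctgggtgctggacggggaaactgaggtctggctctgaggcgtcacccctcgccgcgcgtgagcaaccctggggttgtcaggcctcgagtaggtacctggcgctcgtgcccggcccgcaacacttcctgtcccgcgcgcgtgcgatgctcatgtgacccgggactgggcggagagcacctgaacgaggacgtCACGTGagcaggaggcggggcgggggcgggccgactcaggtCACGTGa
Igfbp3: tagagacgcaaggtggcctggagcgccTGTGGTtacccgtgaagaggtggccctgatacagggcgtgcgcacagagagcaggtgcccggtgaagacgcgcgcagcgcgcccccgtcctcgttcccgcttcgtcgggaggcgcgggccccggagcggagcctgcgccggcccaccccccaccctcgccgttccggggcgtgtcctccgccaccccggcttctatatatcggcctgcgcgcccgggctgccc

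The windows of Igfbp5 and Igf2r held no RUNX motif in these letters, and that of Igfbp3 held 1, beginning 223 bases before the start. The motif occurred in 18.6% of the 32851 windows of the same length in RefSeq's table. Igf2r held the E-box at 2 places, 48 and 7 bases before the start, each within the longer palindrome TCACGTGA. At least 1 TCACGTGA occurred in 0.785% of all windows, and 2 or more in 0.0335% (11 windows). CACGTG alone occurred in 6.02% of all windows, and Igfbp2 held 1 in the first of its pair of windows. The Igf2r window held 27 CpG at 69.2% GC, against medians of 6 and 52.4% over all windows. The shares over all windows are therefore not from windows of like composition. The E-box was also chosen after the sequences had been read, so its rarity is a description only. CACGTG is a sequence that basic helix-loop-helix factors such as MYC, USF and TFEB can bind. A match describes these letters and is not a binding site, and binding was not measured.

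The targeted gene and its partners were read in the same fit. Cbfb fell from 8.65 ± 0.11 to 7.83 ± 0.12 (SD, n = 3 each; limma adjusted p = 0.00205), while Runx1, which encodes a DNA-binding partner, rose by 1.28 (limma adjusted p = 0.00121). Runx3, another partner, differed by 0.24 (limma adjusted p = 0.198). These RNA values measure neither the edit nor the CBFβ protein.

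Other IGF and insulin family genes, listed together with the CCN genes (Ccn1 to Ccn6) and the growth hormone receptor gene Ghr, were mostly low. Of 17 measured genes 1 rose and 0 fell (5.88%, beside 9.75% of all rows). The median difference was -0.057, and 11 of the 17 had both group means under 3.6. The gene that rose was Ccn3, which encodes a secreted matrix-associated protein with an IGFBP-like module at its amino end. Ccn3 read 8.75, 8.35 and 8.73 on control arrays and 9.95, 10.06 and 9.92 on knockout arrays. All knockout arrays of Ccn3 stood above all control arrays, a 2.58-fold rise (difference 1.37, standard error 0.12, limma adjusted p = 0.000562). The second ligand, Igf2, read 3.07 ± 0.21 and 3.04 ± 0.17, and Igfbp1, a binding protein gene that insulin represses in liver, read 3.24 ± 0.22 and 3.06 ± 0.17. Neither passed (limma adjusted p = 0.933 and 0.487).

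Proteases that cut binding proteins, with their inhibitors, gave 1 rise and 1 fall among 16 measured genes (median -0.035). These 2 of 16 stand beside 9.75% of all rows. Of the 16 genes 11 had both group means under 3.6, so a change in them could be understated. Stc2, whose product stanniocalcin-2 inhibits the IGFBP proteases called pappalysins, read 7.43, 7.76 and 7.82 on control arrays and 8.19, 8.30 and 8.23 on knockout arrays. It rose 1.48-fold with no overlap (difference 0.57, standard error 0.12, limma adjusted p = 0.0187). Without knockout replicate 2 the limma adjusted p for Stc2 was 0.0675 and without knockout replicate 3 it was 0.0566. Adamts1, the gene of a secreted metalloprotease of matrix proteoglycans, read 7.11, 7.35 and 7.51 on control arrays and 5.16, 4.93 and 4.98 on knockout arrays. It fell by 2.30 on the log2 scale (limma adjusted p = 7.54e-05). Pappa, the gene of the pappalysin that cuts IGFBP4 and IGFBP5, read 3.70 ± 0.16 and 3.55 ± 0.25 and did not pass (limma adjusted p = 0.631). Its knockout mean lay under 3.6 and its control mean just above, so equal levels are not shown.

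Below the receptors, 44 adaptors and members of the PI3K, AKT and mTOR cascade were measured, and 7 rose and 6 fell (29.5%), with a median difference of 0.0033. Of the 44 genes 39 lay above the median row, where 33.3% of them and 18.1% of all rows passed. When rows above the median were fitted alone, the shares were 38.5% and 27.9%. The split moved with the fit, to 6 higher and 2 lower with the replicate block, 5 and 1 without control replicate 2, 6 and 1 without knockout replicate 3, and 2 and 4 without moderation. The regulatory PI3K subunit gene Pik3r3 rose from 3.87 ± 0.27 to 4.99 ± 0.23 (limma adjusted p = 0.0046) and the phosphatase gene Inppl1, which encodes SHIP2, from 5.98 ± 0.026 to 6.76 ± 0.040 (limma adjusted p = 0.000856). Pik3ip1, an inhibitor of PI3K, rose by 0.77 (limma adjusted p = 0.0307) and the catalytic subunit gene Pik3cb by 0.69 (limma adjusted p = 0.00822). Pik3ip1 missed the threshold in 5 of 6 fits that left out 1 array (limma adjusted p 0.00559 to 0.172 over all its alternatives).

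The other catalytic PI3K genes, named after their values were seen, went the other way from Pik3cb. Pik3cg fell by 0.40 (limma adjusted p = 0.0204), Pik3ca fell by 0.33 (limma adjusted p = 0.0443) and Pik3cd, the form typical of lymphocytes, fell by 0.32 (limma adjusted p = 0.0409) on the log2 scale. These falls were small, and with 1 array left out they missed the threshold in 4, 5 and 6 of 6 fits for Pik3cg, Pik3ca and Pik3cd. Rptor and Rictor, also named afterwards, encode the defining subunits of mTOR complexes 1 and 2. Rptor rose from 7.30 ± 0.087 to 7.88 ± 0.068 (limma adjusted p = 0.00538) and Rictor fell from 7.73 ± 0.087 to 7.11 ± 0.049 (limma adjusted p = 0.00356). Both passed in all 6 fits that left out 1 array. The adaptor gene Irs2, which couples the insulin and IGF1 receptors to PI3K, read 9.46 ± 0.090 and 9.46 ± 0.042 (95% interval of the difference -0.19 to 0.20). For the cascade as a whole 8 genes passed with the replicate block and 6 without control replicate 2. The count was 7 without control replicate 3, knockout replicate 2 or knockout replicate 3.

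FOXO factors, which AKT keeps out of the nucleus, and their known targets gave 5 rises and 4 falls among 31 measured genes (29%, median 0.063). Of the 31 genes 26 lay above the median row, where 34.6% of them and 18.1% of all rows passed. Gadd45b, a stress-induced gene, fell from 8.88 ± 0.11 to 7.45 ± 0.064 (limma adjusted p = 0.000142). The cyclin gene Ccng2 rose from 6.10 ± 0.24 to 7.0 ± 0.16 (limma adjusted p = 0.0062). Cdkn1a, the gene of the cell cycle inhibitor p21, fell by 0.74 on the log2 scale (limma adjusted p = 0.00574) and the death ligand gene Tnfsf10 fell by 0.73 (limma adjusted p = 0.00144). Foxo1 read 7.14 ± 0.15 and 7.23 ± 0.053, and Foxo3 5.87 ± 0.095 and 5.87 ± 0.12 (limma adjusted p = 0.675 and 0.99). The targets thus did not share 1 direction, and of the 4 FOXO genes none passed; Foxo4 differed by 0.42 (limma adjusted p = 0.0885).

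Igf2r shares its sorting route with M6pr, the other mannose 6-phosphate receptor gene, and with enzymes and coat proteins, of which 25 were measured. Among them 3 rose and 1 fell, with a median of 0.063. All 25 lay above the median row, where 16% of them and 18.1% of all rows passed. M6pr read 10.77, 10.79 and 10.81 on control arrays and 10.61, 10.58 and 10.60 on knockout arrays. Its groups did not overlap, yet the difference of -0.19 did not pass (95% interval -0.37 to -0.02, limma adjusted p = 0.167), and its sign was opposite to that of Igf2r. Gnptab, which encodes subunits of the enzyme that starts the mannose 6-phosphate tag, fell from 6.42 ± 0.10 to 5.85 ± 0.076 (limma adjusted p = 0.00717). The sorting nexin gene Snx6 rose from 9.29 ± 0.15 to 9.86 ± 0.040 (limma adjusted p = 0.00979). Ap1s2, an adaptor complex subunit gene, rose by 0.39 (limma adjusted p = 0.0234) and Pacs1, a trafficking adaptor gene, by 0.35 (limma adjusted p = 0.045). With 1 array left out Pacs1 missed the threshold in 6 of 6 fits and Ap1s2 in 5 of 6. The count of 4 became 2 with the replicate block and also without control replicate 2, control replicate 3, knockout replicate 2 or knockout replicate 3.

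Binders of Igf2 mRNA and imprinted genes near H19, Igf2 and Igf2r gave 0 calls in limma among 11 measured genes, beside 9.75% of all rows. An unadjusted p under 0.05 in limma was found for 3 of the 11 and for 5780 of all 25206 rows. Of the 11 genes 9 had both group means under 3.6, so 0 calls does not show equal levels. The chromatin insulator gene Ctcf differed by 0.26 (limma adjusted p = 0.086) and the imprinted noncoding gene H19 by -0.45 (limma adjusted p = 0.105). H19 read 3.05, 2.51 and 2.54 on control arrays and 2.30, 2.28 and 2.18 on knockout arrays, all under 3.6.

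**Figure D4:**
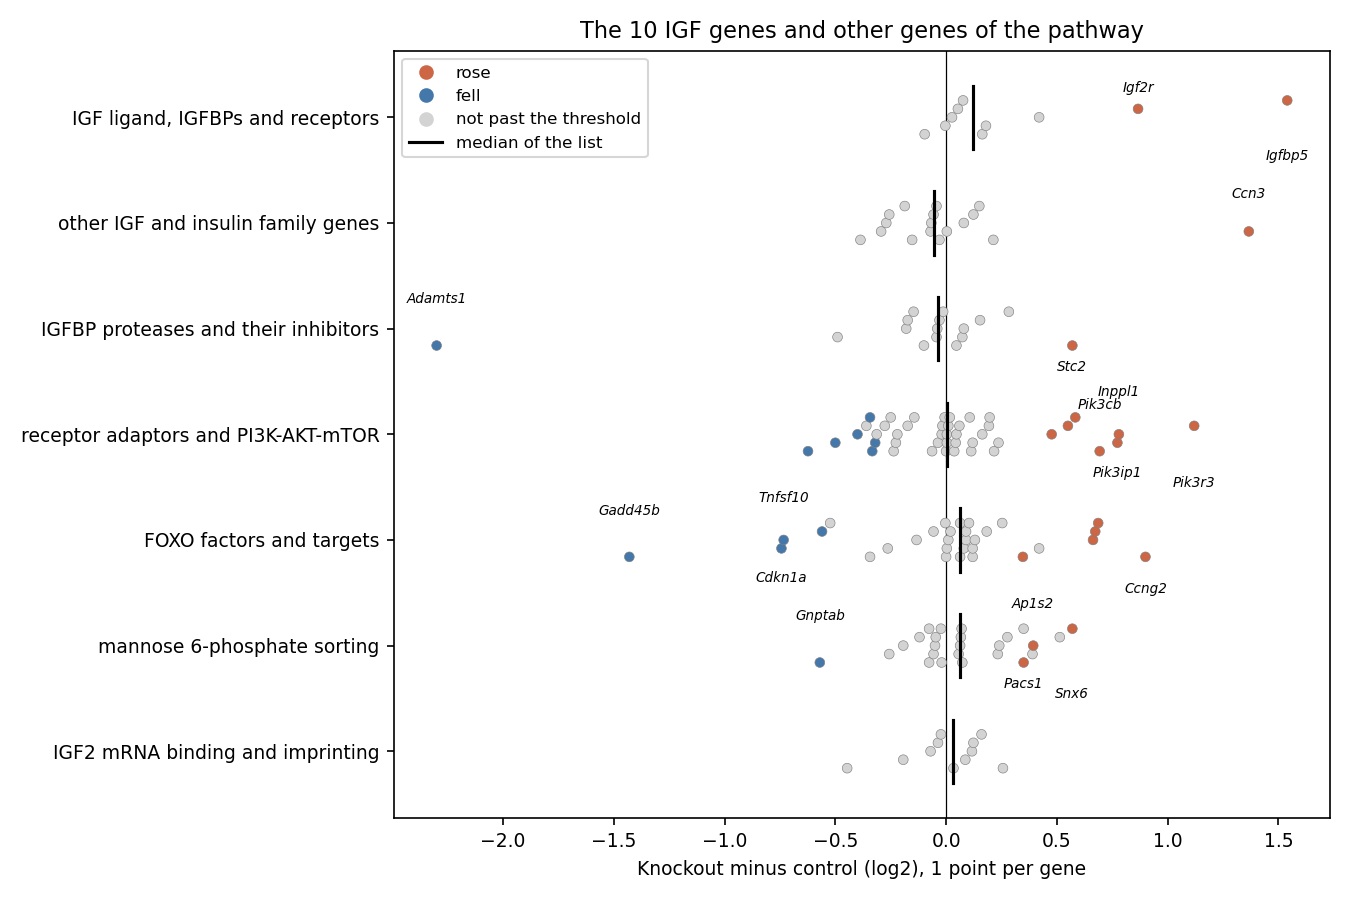
Difference between knockout and control (horizontal axis, log2) for each measured gene of 7 lists, with the list median as a black bar, rises past the threshold in orange and falls in blue. Adamts1 (-2.30), Igfbp5 (1.54), Gadd45b (-1.43) and Ccn3 (1.37) lie farthest from 0, and the list medians lie between -0.057 and 0.12.

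Rows whose pattern over the 6 arrays was most like that of each of the pair are given as a description. For Igfbp5 they were the ubiquitin ligase subunit gene Fbxo44 (Pearson r = 0.9996), the phospholipase gene Plcb3 (0.9988) and Gm2a (0.9982), which encodes a lysosomal cofactor of ganglioside breakdown. For Igf2r they were Npc2 (0.9993), which encodes a lysosomal cholesterol carrier, Baz1b (0.9988), a chromatin remodeller gene, and Snupn (0.9985), a nuclear import gene. Of these 6, Plcb3 rose by 1.06, Snupn by 0.88, Npc2 by 0.79, Gm2a by 0.77 and Fbxo44 by 0.66 on the log2 scale (limma adjusted p = 0.000478, 0.00156, 0.00201, 0.00173 and 0.0024). Baz1b differed by 0.29 and did not pass (limma adjusted p = 0.054). Over 6 arrays in 2 groups such a correlation mostly holds the group difference, and 766 named rows for Igfbp5 and 746 for Igf2r had r over 0.95.

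Markers of other cells were set beside the family, since binding proteins and Igf1 are typical of stroma, endothelium and macrophages. The ILC2 list (10 measured) had a mean log2 level per array of 9.12 to 9.23 in control and 9.14 to 9.24 in knockout, and Gata3 and Klrg1 read 10.58 and 11.37 in control and 10.68 and 11.36 in knockout. Of that list Rora, which encodes a factor needed for ILC2 development, rose from 3.32, under 3.6, to 5.53. The receptor genes Il7r and Icos and the cytokine gene Il5 fell. Il17rb, a receptor gene, read 2.53 in control and 2.50 in knockout. It was the 1 gene of the ILC2 list with both means under 3.6. The fibroblast list (11 measured) lay at 3.0 to 3.14 and 2.99 to 3.17, and 9 of the 11 had both means under 3.6. Of that list 1 gene rose, the matrix proteoglycan gene Dcn (4.35 ± 0.21 to 5.0 ± 0.17, limma adjusted p = 0.0179), which missed the threshold in 4 of 6 fits that left out 1 array. The collagen genes Col1a2, Col3a1 and Col6a3 read 3.25, 3.59 and 3.23 in control and 3.22, 3.46 and 3.12 in knockout. Col1a1, also a collagen gene, lay above 3.6, with 4.56 in control and 4.46 in knockout. Macrophage markers (12 measured) lay at 2.88 to 3.09 and 2.93 to 2.95, and endothelial markers (12 measured) at 2.89 to 3.01 and 2.82 to 2.97. In both lists 0 genes passed in limma, with 0 and 1 at an unadjusted p under 0.05. Of the 12 macrophage markers 10 had both means under 3.6. Cd68 (5.87 in control and 5.84 in knockout) and C1qa (4.01 and 3.99) lay above it. Among the endothelial markers Egfl7 read 4.41 in control and 4.48 in knockout. T cell markers (12 measured) lay at 3.96 to 4.03 and 3.72 to 3.85. Cd247 and Trac were lower past the threshold (16.7% of the list, beside 9.75% of all rows). An unadjusted p under 0.05 in limma was found for 6 of the 12 T cell markers and for 5780 of all 25206 rows. Of the 12 markers 5 had a difference above 0, and 7 had both means under 3.6. B cell markers (7 measured) lay at 2.55 to 2.63 and 2.54 to 2.63, with 0 past the threshold in limma and 1 at an unadjusted p under 0.05. Mast cell and basophil markers (10 measured) lay at 3.0 to 3.10 and 2.81 to 2.98. Of these Hdc rose from 3.93 to 5.39 and Cpa3 fell from 6.87 to 3.96. The part of other cells in the rises of Igfbp5 and Igf2r was not tested.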

How the data were processed

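Total RNA of 6 samples (3 control, 3 knockout) was extracted with Trizol, biotin-labelled and hybridised to single-colour arrays, per the labels' protocols. The deposited table holds log2 values, 1 row per Entrez gene, with RMA and limma 3.14.4 named in the submitters' processing notes without a role. The scale was read from the values (0.66 to 12.51), and array medians were 3.57 to 3.63. RMA normalisation hides a shift common to most genes and compresses low values, and the number of arrays limits the precision. Of 25206 rows 23185 had 1 symbol, matched by Entrez number to RefSeq (GRCm38.p6), and 2021 had none.

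Values were used as deposited in limma 3.58.1 (R 4.3.3), knockout minus control, default prior, two-sided, Benjamini-Hochberg over all rows, threshold 0.05. The fit was tested on simulated data with independent normal errors and row variances drawn from its own fitted prior. Such data check the code and cannot show how correlated or technical replicates would act. The 10 genes and all lists were chosen with earlier results of these data known. Named were all 10, Cbfb and RUNX genes, up to 4 called genes per list by size (otherwise the 2 with the smallest p), the 3 rows most alike, and those stated as chosen later. Of the listed genes and markers 17 had no row and were not analysed here. Same-numbered arrays deviated together with r of 0.025, 0.0067 and 0.054, all under 0.1, so numbers were not taken as pairs. Alternatives were the replicate block, leaving out each array, quantile normalisation again, median centring, rows above the median level, a trended robust prior, no moderation, array weights and rows with a symbol.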

Additional observations from a re-analysis of the deposited data

How the results depend on the processing

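Igfbp5 and Igf2r stayed higher and past the threshold in all 14 alternatives, with differences of 1.47 to 1.63 and 0.80 to 0.94. The alternatives reuse the arrays whose values were known when the family was picked. They describe dependence on the processing and give no independent support. The other 8 genes of the family passed in none, and 4 of them have no value among rows above the median level. Among them Igf1 changed sign with quantile normalisation again (0.010), median centring (0.0033) and array weights (0.034). With 1 array left out, differences ran from -0.087 to 0.068 for Igf1, -0.0083 to 0.087 for Igfbp2, -0.023 to 0.14 for Igfbp4, -0.21 to 0.05 for Igfbp7, -0.07 to 0.14 for Igf1r, 0.068 to 0.25 for Igfbp3, 0.13 to 0.24 for Igfbp6 and 0.28 to 0.53 for Insr.

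Of all rows 1307 to 1837 passed with 1 array left out and 1254 without moderation. With the replicate block 1745 of all rows, 8 cascade genes and 2 sorting genes passed. With 1 array left out, 1 to 2 of the protease list, 6 to 9 of the cascade and 2 to 4 of the sorting list passed. Without knockout replicate 2 the protease list gave 0 rises and 2 falls. Without moderation the counts were 1 for proteases, 6 for the cascade, 4 for FOXO genes and 2 for the list of Igf2 mRNA binders and imprinted genes. Among rows above the median level alone 3517 of 12603 rows (27.9%), 3 protease list genes (60%), 10 sorting genes (40%) and 1 of that last list passed. With the trended robust prior 3516 of all rows, 3 protease list genes, 9 sorting genes and 1 of the Igf2 mRNA binder and imprinted list passed. The causes of these shifts were not tested. The values carry no detection calls, which limits statements on the genes under 3.6, and 3 arrays per group limit what small differences can be seen.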
